A study of Mus musculus with 18 samples.

Results

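The liver of obese mice given CMPF was compared with the liver of chow-fed mice, 3 arrays against 3, so 6 of the 18 arrays of the series carry this comparison. The members were found from the sample titles of the reversal model. The question was which changes of a fat-rich diet were still present after CMPF, and which changes against chow were present with CMPF and not with vehicle. The 3 arrays of high-fat diet (HFD) with vehicle of the same model served as the reference for that question. All animals were wild-type CD1 mice. The HFD group with CMPF had 6 weeks of a diet with 60% of its energy as fat, and then injections of 6 mg/kg per day of CMPF for 2 weeks. The HFD group with vehicle had the same diet and injections of vehicle over the same 2 weeks. The labels name the chow group a control; whether those mice were injected is not stated. Nor is it stated whether each array is a separate animal, so a p-value here covers the spread between arrays, which may be technical. The labels give no sex, age or hour at which the livers were taken. RNA was whole liver RNA, in which a change in the number of cells of a type and a change of RNA within each cell cannot be told apart.

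CMPF is a product of furan fatty acids, found in plasma, that rises after fish oil is eaten. In the liver, cholesterol is made from acetyl-CoA through mevalonate, squalene and lanosterol, and the transcription factor SREBP2 drives the genes of that route when sterols in the endoplasmic reticulum are low. Fatty acids are made by a separate set of enzymes under SREBP1c and ChREBP, and are burned by enzymes under PPAR alpha. The liver clock is a loop in which BMAL1 (gene Arntl) and CLOCK switch on their own inhibitors, and the output factor DBP acts on D-box motifs. Serum amyloid A and orosomucoid are acute phase proteins, which hepatocytes secrete when cytokines or glucocorticoids reach them.

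Values are log2 array signals after RMA, so a difference of 1 is a factor of 2 in signal. Chow array 2 stood apart from the rest of the reversal model. Its median correlation with the other 8 reversal arrays was 0.948, against 0.977 to 0.984 for each of the other 8, and the SD of its log2 values was 2.14 against 2.27 to 2.34. An index of RNA integrity, the 3' minus the 5' signal of Gapdh and beta-actin, goes up as RNA gets shorter; it ran from 2.51 to 3.57 in chow and from 1.66 to 3.57 in HFD with CMPF (difference -0.52, exact permutation test, two-sided p = 0.6, where 0.1 is the smallest p this design allows). Summed hepatocyte markers were between 16.2 and 16.4 on every reversal array. For most calls that rest on single arrays, the result without them is given.

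Of 13221 genes tested, 265 (2%) differed between HFD with CMPF and chow at an adjusted p under 0.05 (limma, Benjamini-Hochberg). Higher with CMPF were 213 genes (1.61%), 93 of them by more than a factor of 2, and lower were 52 (0.393%), 16 of them by more than a factor of 2. The arrays of the groups did not overlap for 264 of the 265, a property that 18.4% of all genes tested had. HFD with vehicle against the same 3 chow arrays gave 324 genes (2.45%), 287 higher (2.17%) and 37 lower (0.28%). The balance of direction depended on scaling: 80.4% of the genes that passed were higher as deposited, 58.2% of 249 after cyclic loess and 49.8% of 237 after a new quantile normalisation. The number also rested on single arrays. It was 138 without chow array 2, 104 without CMPF array 1 and 73 without CMPF array 3. The fit takes its spread from the arrays of both models. With the 9 reversal arrays alone the number was 59, and with the 6 arrays compared alone it was 8.

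The genes that passed with CMPF were in part the genes that passed with vehicle. Of the 265 genes, 119 passed for HFD with vehicle too, 107 higher and 12 lower, all in the same direction; that is 44.9% of the 265 and 36.7% of the 324. The comparisons share their chow arrays, so this overlap is a count and no test. The other 146 genes (106 higher, 40 lower) passed with CMPF and not with vehicle. The direct comparison of CMPF with vehicle on HFD is the test of a difference, and it passed for 5 of 13221 genes (0.0378%; 2 higher with CMPF, 0.0151%, and 3 lower, 0.0227%): 2 of the 146 and 3 of the 205 that passed with vehicle and not with CMPF. Without adjustment, 634 genes were under 0.05 in that direct comparison, 72 of them among the 146 and 75 among the 205. The difference of CMPF on HFD from chow differed between the reversal and prevention models for 50 genes (0.378%), by limma's test of that interaction; 0 passed with the 3' to 5' index as a covariate, 14 with the replicate number as a block and 2 without CMPF array 3. The HFD vehicle mean lay farther from chow than the CMPF mean for 58 of the 265.

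**Figure D1:**
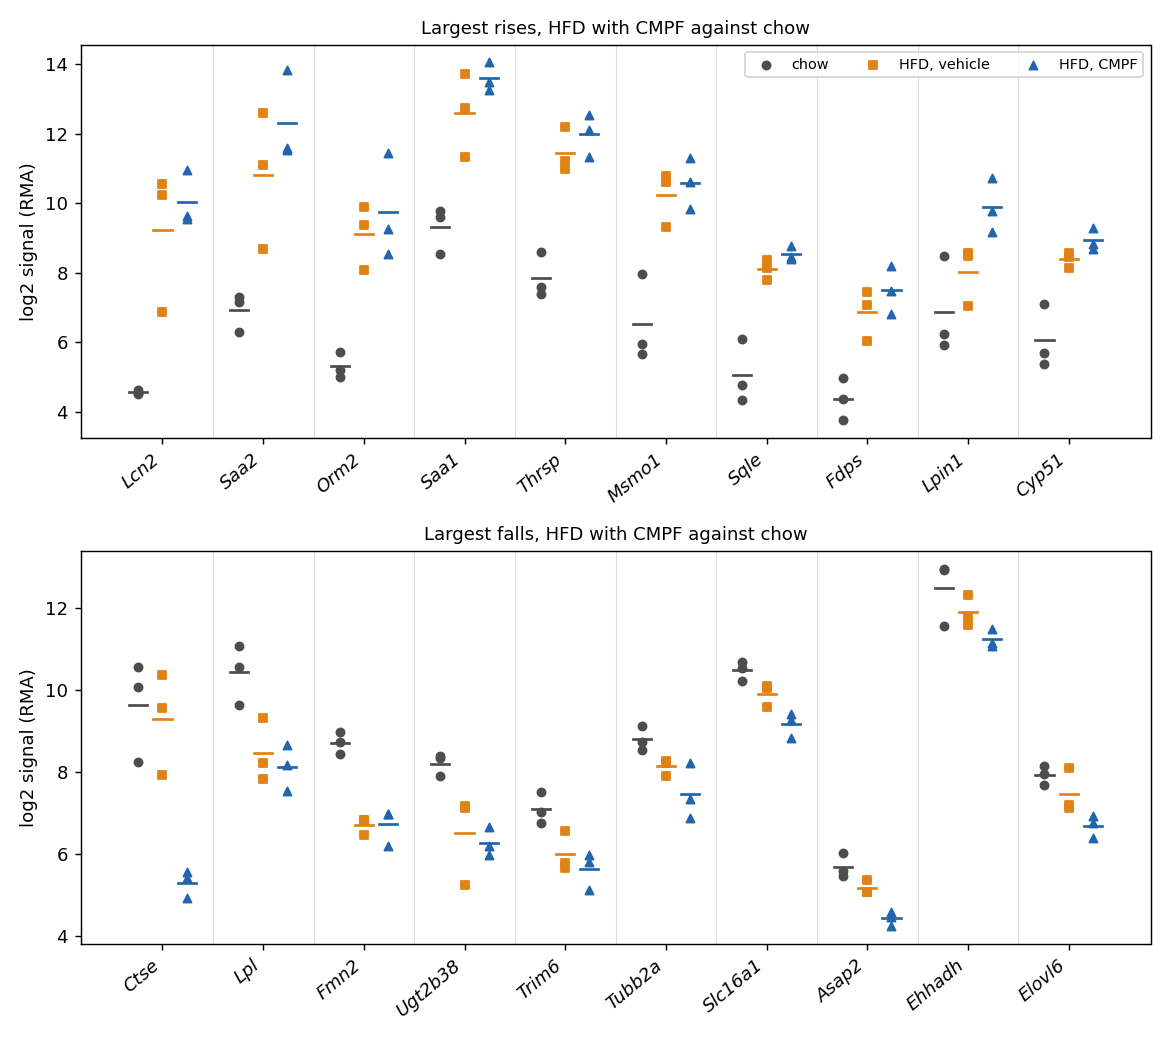
Log2 signal on each of the 9 reversal arrays for the 10 genes with the largest rise (upper panel) and the 10 with the largest fall (lower panel) in HFD with CMPF against chow; circles are chow, squares HFD with vehicle, triangles HFD with CMPF, and bars are group means of 3 arrays. Lcn2 sits between 4.53 and 4.63 on chow and between 9.55 and 10.95 with CMPF, while Ctse is low only on the 3 CMPF arrays, from 4.93 to 5.55.

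The genes of cholesterol synthesis were higher in obese liver with CMPF than in chow liver. Of 22 tested genes of cholesterol synthesis and uptake, 9 rose and 0 fell, and 13 did not pass (40.9% passed, against 2% of all genes). The median difference of the list was 1.15, against 0.03 over all genes, and 21 of 22 members were above chow. After quantile normalisation 6 members were higher and 1, Insig2 (-1.06), was lower; after cyclic loess 7 were higher and 0 lower.

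Msmo1, the methyl sterol oxidase that acts after lanosterol, had the largest difference of the list. Its log2 signal was 5.97, 7.96 and 5.66 on chow arrays 1 to 3, and 10.61, 9.83 and 11.29 on the CMPF arrays. Chow array 2 was the highest of the chow arrays and still below every CMPF array. The difference was 4.05 ± 0.68 (SE, n = 3 arrays a group, adjusted p = 0.0104), a factor of 16.5. Sqle, squalene epoxidase, read 4.34, 6.10 and 4.79 on chow and 8.40, 8.45 and 8.76 with CMPF, a difference of 3.46 ± 0.62 (SE, adjusted p = 0.0128). Fdps, which makes farnesyl diphosphate, read 4.38, 4.98 and 3.78 on chow and 7.48, 6.81 and 8.19 with CMPF (3.11 ± 0.56 SE, adjusted p = 0.0135). For these enzymes, as for Cyp51, the lanosterol demethylase (2.87 ± 0.50 SE, adjusted p = 0.0115), every CMPF array was above every chow array.

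Nsdhl, a sterol dehydrogenase of the same stretch of the route, rose by 1.91. Insig1, which holds SREBP in the endoplasmic reticulum and is itself an SREBP target, rose by 1.82, the sterol carrier Stard4 by 1.48, and the late enzymes Dhcr7 and Lss by 1.46 and 1.30 (adjusted p 0.0128 to 0.0371 for these 5). The 3 probe sets of Lss differed, from -0.21 to 1.51, and their mean did not pass (0.87, adjusted p = 0.0708). Insig1 lost its call without 5 single arrays (adjusted p 0.0555 to 0.0862), as did Dhcr7 (0.0665 to 0.103) and Lss (0.0569 to 0.0939). Stard4 lost its call without 3 (0.0536 to 0.0808). After quantile normalisation Insig1 (0.0648), Dhcr7 (0.0827) and Lss (0.0644) did not pass, nor did Insig1 (0.0529) and Dhcr7 (0.06) after cyclic loess. Idi1, the isomerase of isopentenyl diphosphate (2.14, adjusted p = 0.0606), and Hmgcs1, the synthase that opens the route (1.43, adjusted p = 0.0855), did not pass. Srebf2, the gene of SREBP2 itself, read 6.71 to 6.93 on chow and 7.02 to 7.33 with CMPF, a difference of 0.32 (adjusted p = 0.232).

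These genes were above chow on HFD with vehicle too. The list's median against chow was 0.89 with vehicle and 7 members passed there; 20 of 22 were above the vehicle mean with CMPF, and 0 of the 22 differed in the direct comparison. Msmo1 read 10.79, 9.33 and 10.62 with vehicle, overlapping the CMPF arrays, with a difference of CMPF from vehicle of 0.33 (95% interval -1.14 to 1.80). For Sqle the difference was 0.43 (-0.89 to 1.76) and for Fdps 0.63 (-0.58 to 1.83). The intervals therefore allow a further rise as well as a fall. Without chow array 2 the list had 10 members higher; without CMPF array 3 it had 1, with Msmo1 at an adjusted p of 0.0526, Sqle and Nsdhl at 0.0569 and Fdps at 0.0651, at differences of 1.84 to 3.69. Without chow array 3 or CMPF array 1 it had 5, and in a fit of the 6 arrays alone 0. Cyp51 passed with each array left out in turn.

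**Figure D2:**
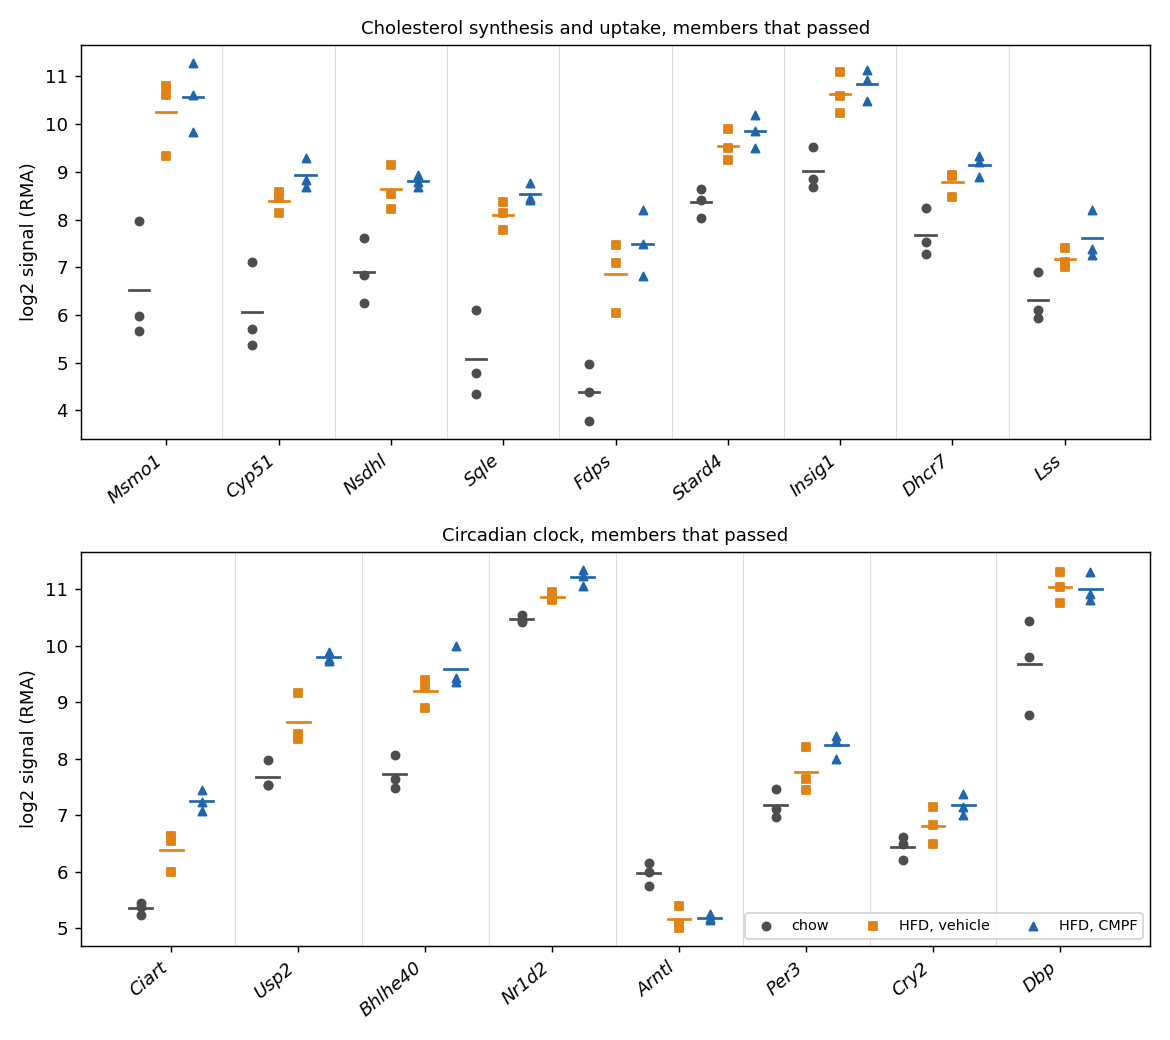
Log2 signal by array of the members that passed in the cholesterol list (upper panel, 9 genes) and in the circadian clock list (lower panel, 8 genes); circles are chow, squares HFD with vehicle, triangles HFD with CMPF, bars are means of 3 arrays. The sterol genes with vehicle and with CMPF lie close together, while Ciart, Usp2 and Nr1d2 rise in steps from chow to vehicle to CMPF, and Arntl is lower in both HFD groups.

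Some genes of the liver clock differed from chow, among them repressors and output genes that BMAL1 and CLOCK are known to switch on. The hour at which the livers were taken is not given, and its part in these differences was not tested. Of 19 tested clock genes, 7 rose, 1 fell and 11 did not pass (42.1% passed, against 2% of all genes), with a list median of 0.74. With vehicle, 4 rose and 1 fell, and the list median was 0.07. After quantile normalisation the CMPF count was 4 higher and 2 lower, and after cyclic loess 5 higher and 2 lower; the added gene was Clock (-0.88 and -0.83), which read 7.51 to 8.38 on chow and 7.05 to 7.33 with CMPF and did not pass as deposited (-0.76, adjusted p = 0.052). The promoters of the following genes are printed to show motifs through which the clock is known to act. They were chosen for a match: of the 7 clock genes that passed and have a RefSeq promoter, 1 (14.3%) held the E-box and 1 the D-box, and of 17 tested clock genes 5 (29.4%) held the E-box. Each is the 250 bases before the transcription start in RefSeq (GRCm38.p6), on the strand of the gene; capitals mark the E-box CACGTG in Ciart, and the D-box TTATGTAA in Per3.
Ciart, chr3:95882229-95882478 (-): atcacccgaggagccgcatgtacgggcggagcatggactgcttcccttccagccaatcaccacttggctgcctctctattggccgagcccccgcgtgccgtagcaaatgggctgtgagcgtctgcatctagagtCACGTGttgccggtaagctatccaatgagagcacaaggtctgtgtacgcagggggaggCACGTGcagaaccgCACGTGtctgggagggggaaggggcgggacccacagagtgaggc
Per3, chr4:151044666-151044915 (-): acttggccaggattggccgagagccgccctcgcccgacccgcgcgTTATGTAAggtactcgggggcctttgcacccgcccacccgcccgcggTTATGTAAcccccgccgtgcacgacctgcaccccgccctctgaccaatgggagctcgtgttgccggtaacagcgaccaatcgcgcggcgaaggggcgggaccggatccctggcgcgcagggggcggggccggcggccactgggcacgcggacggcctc

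Ciart, a repressor of BMAL1 and CLOCK also called Chrono, was among the genes with the smallest p. It read 5.23, 5.38 and 5.44 on chow, 6.54, 5.99 and 6.63 with vehicle, and 7.23, 7.07 and 7.44 with CMPF. The 3 groups formed steps with no overlap. The difference from chow was 1.90 ± 0.16 (SE, adjusted p = 0.000164), a factor of 3.72, and the difference from vehicle was 0.86 (95% interval 0.51 to 1.21, adjusted p = 0.112). Its promoter, printed above, holds 3 E-boxes, the farthest starting 116 bases before the start.

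Usp2, a deubiquitinase that cycles with the liver clock, formed the same steps: 7.53, 7.53 and 7.97 on chow, 8.43, 8.34 and 9.16 with vehicle, and 9.73, 9.89 and 9.77 with CMPF. It rose by 2.12 ± 0.22 (SE, adjusted p = 0.00042) against chow, and was 1.15 above vehicle (95% interval 0.67 to 1.63, adjusted p = 0.112). Bhlhe40 (DEC1), a further repressor of the loop, rose by 1.85 ± 0.21 (SE, adjusted p = 0.000827), with vehicle at 1.45. Nr1d2, the nuclear receptor REV-ERB beta, read 10.41 to 10.54 on chow and 11.06 to 11.34 with CMPF, a rise of 0.75. Ciart and Usp2 passed in each of 21 other settings, and Bhlhe40 and Nr1d2 with each array left out in turn; Nr1d2 did not pass after quantile normalisation (0.54, adjusted p = 0.052).

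Arntl, the gene of BMAL1, moved the other way, from 5.75, 6.16 and 6.00 on chow to 5.25, 5.14 and 5.18 with CMPF. It fell by 0.78 ± 0.15 (SE, adjusted p = 0.0171), and was as low with vehicle (5.00 to 5.39). Dbp, the output factor that binds D-boxes, rose by 1.34, Per3, a period gene, by 1.06 and Cry2, a cryptochrome, by 0.74 (adjusted p 0.0357 to 0.0439). Each of these 3 calls was lost without several single arrays: Dbp without 8 of the 9 (adjusted p 0.0503 to 0.152), Cry2 without 6 (0.0528 to 0.11) and Per3 without 5 (0.0651 to 0.13). Cry2 and Per3 did not pass after either scaling, and the mean of the Per3 probe sets was 0.59 (adjusted p = 0.243). Chow array 2 had the lowest Dbp of all arrays, 8.77, and without it the difference was 0.90. Arntl was lost without chow array 2 (adjusted p = 0.0572), CMPF array 1 (0.0501) or CMPF array 3 (0.065). Per1, which read 6.42 to 8.06 on chow, 6.58 to 7.25 with vehicle and 7.77 to 8.32 with CMPF, passed neither against chow (0.87, adjusted p = 0.198) nor against vehicle (1.04, adjusted p = 0.68).

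The D-box TTATGTAA, read on either strand, lay in the promoter of 7 of the 175 raised genes that have a RefSeq promoter (4%), of 1 of 37 lowered genes and of 65 of 10625 tested genes (0.612%); over all 32851 promoters listed the share was 0.819%. The 7 were Coq10b, Map2k6, Per3, Sec61b, Slc16a12, Wnt5b and Yif1b. The motif was searched after the clock values were known, no test was made, and a match is a run of letters and no site of binding. Windows of 50 bases around the motif in the genes with the largest rises among the 7 are shown, with the motif in capitals (TTACATAA is the same motif on the other strand).
Map2k6, chr11:110478265-110478314 (+): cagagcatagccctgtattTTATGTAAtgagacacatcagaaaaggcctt
Coq10b, chr1:55052587-55052636 (+): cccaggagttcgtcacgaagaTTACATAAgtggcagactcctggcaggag
Map2k6, a kinase that activates p38, rose by 2.04, and Coq10b, which serves coenzyme Q in mitochondria, by 1.43. The E-box was in 16% of promoters of raised genes, 18.9% of lowered genes and 9.73% of tested genes. The sterol element TCACNCCAC was in 0 of 6 promoters of the sterol genes that passed and in 1.25% of tested genes.

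Acute phase genes held the largest rises. Of 25 tested members, 7 rose and 0 fell (28%, against 2% of all genes), 18 did not pass, and the median was 0.71; with vehicle 3 passed and the median was 0.47. Lcn2, lipocalin 2, read 4.63, 4.56 and 4.53 on chow and 10.95, 9.55 and 9.62 with CMPF, a difference of 5.46 ± 1.18 (SE, adjusted p = 0.0313) or a factor of 44.0. With vehicle it read 10.23, 10.56 and 6.88, so the vehicle arrays were spread widely around a mean that did not pass (adjusted p = 0.0539). Saa1, serum amyloid A1, read 9.60, 8.55 and 9.78 on chow and 14.04, 13.26 and 13.47 with CMPF (4.28 ± 0.73 SE, adjusted p = 0.0109); it passed in each of 21 other settings. Orm2, an orosomucoid, read 5.74, 5.02 and 5.21 on chow and 11.43, 9.25 and 8.54 with CMPF (4.41 ± 0.86 SE, adjusted p = 0.019). Saa2 rose by 5.38 on a probe set that can also bind related transcripts. Saa4 rose by 1.21, Orm1 by 1.47 and Itih4 by 0.91.

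Against vehicle, 0 of the 25 acute phase genes differed in the direct comparison; Saa1 was 0.99 above vehicle with a 95% interval of -0.58 to 2.56. Saa1 and Saa4 passed with each array left out in turn. Without chow array 2 or without CMPF array 1 the list had 2 members that passed, and without CMPF array 2 or 3 it had 4. Lcn2 lost its call without any 1 of the 6 arrays compared (adjusted p 0.0501 to 0.116), Orm2 and Saa2 without chow array 2 (0.0572 and 0.0555) or CMPF array 1 (0.0796 and 0.075), Itih4 without 4 arrays (0.0627 to 0.111) and Orm1 without 8 (0.0537 to 0.16). Neutrophils also make Lcn2. Of 6 neutrophil markers on the array, 4 were above the signal filter (Mpo and Cxcr2 were below it) and 0 of those passed. The summed level of all 6 was 7.37 to 7.67 on chow, 7.48 to 8.26 with vehicle and 7.76 to 8.43 with CMPF. Summed Kupffer cell and macrophage markers were 11.2 to 11.7 on chow, 11.8 to 12.2 with vehicle and 11.7 to 12.2 with CMPF. Of these 12 markers 0 passed, but their median difference from chow was 0.79, the largest of the cell type lists. The part of either in these genes was not tested.

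Fkbp5, a co-chaperone of the glucocorticoid receptor that glucocorticoids induce, was 1 of 2 genes that were higher with CMPF than with chow and than with vehicle. It read 8.30, 7.70 and 8.88 on chow, 7.69, 8.24 and 7.58 with vehicle, and 9.40 and 9.43 on CMPF arrays 1 and 2, with CMPF array 3 the highest of all (mean of the 3, 9.61). All CMPF arrays were above all others. It rose by 1.31 ± 0.26 (SE, adjusted p = 0.0205) against chow and was 1.77 above vehicle (95% interval 1.21 to 2.32, adjusted p = 0.0353). A second probe set of Fkbp5 gave 0.15 against chow, and the mean of its probe sets passed neither against chow (0.73, adjusted p = 0.0655) nor against vehicle (1.00, adjusted p = 0.0771). The call against chow was lost without chow array 2 (1.01, adjusted p = 0.0572) or CMPF array 3 (1.11, 0.0914), and that against vehicle in 6 of 9 removals, in a fit of the 9 reversal arrays alone and with the replicate number as a block (0.0829).

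Of 16 tested genes of the glucocorticoid receptor and its induced targets, Fkbp5 and Lcn2 rose, beside 1.61% of all genes, and 14 did not pass; 15 of 16 were above chow, with a median of 0.39, and with vehicle the median was -0.16. Zbtb16, a transcription factor that glucocorticoids induce, read 6.16, 6.43 and 8.03 on chow, 6.12 to 7.60 with vehicle and 8.90, 9.59 and 9.24 with CMPF. Its difference from chow was 2.37 (adjusted p = 0.0508) and from vehicle 2.52 (95% interval 1.28 to 3.75, adjusted p = 0.266). Tsc22d3 (GILZ) was 0.90 above chow and Sgk1 0.04, neither past the threshold. Without chow array 2, or without CMPF array 3, the list had 0 members that passed.

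Rhobtb1, whose product works with a cullin ubiquitin ligase, was the other gene higher than both. It read 7.41, 7.38 and 7.22 on chow, 8.25, 7.53 and 8.39 with vehicle, and 9.21, 9.18 and 9.41 with CMPF. The difference from chow was 1.93 ± 0.19 (SE, adjusted p = 0.000164), a factor of 3.80, and it passed in each of 21 other settings. The difference from vehicle was 1.21 (95% interval 0.81 to 1.61, adjusted p = 0.0381), a call that was lost in 6 of 9 removals. The call against vehicle was also lost after quantile normalisation (adjusted p = 0.0878) or cyclic loess (0.0648) and with the mean of its probe sets (0.129). It was lost as well with the replicate number as a block (0.0829) and in a fit of the 9 reversal arrays alone (0.29). Akr1c19, an aldo-keto reductase, rose by 2.36 ± 0.28 (SE, adjusted p = 0.000991), with 7.63 to 7.80 on chow, 8.24 to 9.38 with vehicle and 9.89 to 10.43 with CMPF, and also passed in each setting.

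Genes of fat metabolism moved in both directions. Thrsp (Spot 14), a regulator of fatty acid synthesis, read 7.38, 8.60 and 7.60 on chow and 12.09, 11.32 and 12.54 with CMPF. It rose by 4.13 ± 0.40 (SE, adjusted p = 0.000164), a factor of 17.5, and by 3.59 with vehicle; its 3 probe sets ranged from 0.14 to 4.48. Lpin1, the phosphatidate phosphatase lipin 1 of triglyceride synthesis, read 6.23, 5.94 and 8.48 on chow, 8.48, 8.57 and 7.06 with vehicle, and 9.17, 9.79 and 10.73 with CMPF. It rose by 3.01 ± 0.61 (SE, adjusted p = 0.0229); with vehicle the difference was 1.16 (adjusted p = 0.271), and CMPF was 1.86 above vehicle (95% interval 0.55 to 3.16, adjusted p = 0.68). The Lpin1 call was lost without chow array 1 (0.0599), chow array 2 (0.0786) or CMPF array 3 (0.1). Dgat2, which adds the last fatty acid of triglyceride, rose by 0.62, and not after quantile normalisation (0.43, adjusted p = 0.103), after cyclic loess (0.45, 0.078) or without 3 single arrays (0.0503 to 0.065).

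The fatty acid elongases Elovl6 and Elovl5 fell. Elovl2 (-0.50, adjusted p = 0.17) and Elovl3 (-1.36, adjusted p = 0.093) did not pass as deposited; Elovl2 passed after quantile normalisation (-0.69, adjusted p = 0.0414). Elovl6, which lengthens saturated fatty acids, read 8.15, 7.95 and 7.68 on chow, 7.20, 7.11 and 8.10 with vehicle, and 6.38, 6.92 and 6.76 with CMPF. It fell by 1.24 ± 0.24 (SE, adjusted p = 0.019). Elovl5, which lengthens polyunsaturated fatty acids, was near the chow level with vehicle (12.29 to 13.09) and at 11.96, 12.09 and 11.81 with CMPF, against 12.82 to 12.99 on chow. It fell by 0.97 ± 0.17 (SE, adjusted p = 0.0108) against chow and differed from vehicle by -0.81 (95% interval -1.16 to -0.46, adjusted p = 0.141). Scd1, the stearoyl-CoA desaturase, read 12.87 to 13.69 on chow, 11.90 to 14.02 with vehicle, and 10.08, 8.17 and 11.69 with CMPF. Its difference from chow was -3.20 ± 0.82 (SE, adjusted p = 0.0627), with a second probe set at -0.47; without CMPF array 3 it was -4.05 (adjusted p = 0.0447), and after cyclic loess -3.37 (adjusted p = 0.0498), which makes 3 lower genes in the list there. Fasn (0.96), Srebf1 (0.82) and Acaca (-0.16) did not pass. Over the 19 tested lipogenic genes 1 rose and 2 fell, beside 2% of all genes in either direction, with a median of 0.15; 15 of the 19 were below the vehicle mean, and 0 passed that comparison. Elovl5 lost its call without CMPF array 3 (0.0552), and Elovl6 without chow arrays 1 or 2 or CMPF arrays 1 or 3 (0.0516 to 0.0874).

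Lpl, lipoprotein lipase, read 10.57, 9.65 and 11.08 on chow, 9.33, 8.22 and 7.82 with vehicle, and 7.53, 8.17 and 8.65 with CMPF. It fell by 2.32 ± 0.43 (SE, adjusted p = 0.0161), had a difference of -1.98 with vehicle, and lost its call without CMPF array 1 (-2.03, adjusted p = 0.0742) or with the mean of its probe sets (-1.88, 0.0612). Of 15 genes of fatty acid and lipoprotein uptake it alone passed as deposited, beside 2% of all genes. Scarb1, the scavenger receptor for HDL, also passed after quantile normalisation (-1.03, adjusted p = 0.0113) and cyclic loess (-1.01, adjusted p = 0.0171). Of 17 tested genes of lipid droplets and PPAR gamma targets, 1, Pparg, passed as deposited, beside 2% of all genes. Plin2 of that list passed as lower after quantile normalisation (-0.60, adjusted p = 0.04) and cyclic loess (-0.65, adjusted p = 0.03). Among 32 tested genes of fatty acid oxidation, 0 rose and 2 fell, beside 1.61% and 0.393% of all genes: Ehhadh, the peroxisomal bifunctional enzyme (-1.25, adjusted p = 0.0482), and Acot2, a mitochondrial thioesterase that read 8.68 to 9.37 on chow and 7.91 to 8.31 with CMPF (adjusted p = 0.0475). Each lost its call without 7 of the 9 arrays (adjusted p 0.0526 to 0.152), and the second Acot2 probe set gave -0.15. Crat, carnitine acetyltransferase, also passed as lower after quantile normalisation (-0.77, adjusted p = 0.0282) and cyclic loess (-0.72, adjusted p = 0.031). The oxidation list's median was 0.03 as deposited, -0.15 after quantile normalisation and -0.13 after cyclic loess; 25 of 32 members were below the vehicle mean, with 0 past the threshold. Cyp4a14, a PPAR alpha target, read 12.71 to 13.72 on chow and 10.28 to 11.38 with CMPF, a difference of -2.51 that did not pass (adjusted p = 0.0707).

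The largest fall was in Ctse, the aspartic protease cathepsin E, which was low on the 3 CMPF arrays and on no other. It read 10.57, 8.25 and 10.07 on chow, 7.93, 9.57 and 10.38 with vehicle, and 5.40, 4.93 and 5.55 with CMPF. The difference from chow was -4.33 ± 1.00 (SE, adjusted p = 0.0415) and from vehicle -4.00 (95% interval -6.14 to -1.86, adjusted p = 0.353). The second probe set of Ctse gave -0.89 against chow, the mean of both gave -2.61, and the call was lost without 6 of 9 arrays (adjusted p 0.053 to 0.111). Slc16a1, the monocarboxylate transporter MCT1, read 10.68, 10.22 and 10.55 on chow, 9.58 to 10.10 with vehicle and 9.27, 8.84 and 9.43 with CMPF. It fell by 1.30 ± 0.19 (SE, adjusted p = 0.00365), and Asap2, an ARF GTPase-activating protein, by 1.26 ± 0.20 (SE, adjusted p = 0.00643). Both passed with each array left out in turn. Fmn2, a formin, fell by 2.00 with CMPF, and its difference with vehicle was -2.02. Ugt2b38, a glucuronosyltransferase, fell by 1.93, Trim6, a tripartite motif ubiquitin ligase, fell by 1.47, and Tubb2a, a beta tubulin, fell by 1.33. The Fmn2, Ugt2b38, Trim6 and Tubb2a calls were lost without 4, 6, 2 and 4 arrays.

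In the direct comparison, 3 genes were lower with CMPF than with vehicle, each of them raised by HFD with vehicle. Mogat1, monoacylglycerol acyltransferase 1, a PPAR gamma target of fatty liver, read 4.41, 3.98 and 3.84 on chow, 6.39, 6.41 and 7.34 with vehicle, and 4.58, 4.44 and 4.83 with CMPF. Vehicle was 2.64 above chow (adjusted p = 0.000765) and the difference of CMPF from vehicle was -2.10 (95% interval -2.71 to -1.48, adjusted p = 0.0271). All CMPF arrays lay above all chow arrays, at 0.54 from chow (adjusted p = 0.341). Nt5e, the ecto-nucleotidase CD73, read 5.87, 6.06 and 6.20 on chow, 8.04, 7.87 and 8.47 with vehicle and 6.66, 6.24 and 6.92 with CMPF; the difference from vehicle was -1.52 (95% interval -1.93 to -1.11, adjusted p = 0.0199). A second probe set of Nt5e gave 0.03 against chow where the first gave 0.56, and the mean of both differed from vehicle by -0.77 (adjusted p = 0.0709). Cyp2c38, a cytochrome P450 that acts on fatty acids, read 8.05 to 8.77 on chow, 9.94 to 10.77 with vehicle and 8.42 to 8.91 with CMPF, a difference from vehicle of -1.63 (95% interval -2.16 to -1.09, adjusted p = 0.0381); it did not pass after quantile normalisation (0.0962), cyclic loess (0.0678) or with the replicate number as a block (0.0508). Here CMPF overlapped chow and not vehicle. In a fit of the 9 reversal arrays alone none of the 3 passed (adjusted p 0.157 to 0.235), nor in the fit on means of probe sets (0.051 to 0.0709). Removal of single arrays ended the call of Mogat1 in 4 of 9 cases (HFD array 3 and each CMPF array, adjusted p 0.06 to 0.164), of Nt5e in 3 (0.053 to 0.12) and of Cyp2c38 in 6 (0.0501 to 0.261).

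Other genes raised by HFD with vehicle had a CMPF mean below the vehicle mean without passing against vehicle. Cyp2b9, a P450 more abundant in female liver, read 5.47, 3.95 and 6.35 on chow, 10.76, 9.85 and 10.73 with vehicle, and 6.69, 6.65 and 8.28 with CMPF, a difference from vehicle of -3.24 (95% interval -4.44 to -2.04, adjusted p = 0.0858). Hao2, a peroxisomal hydroxyacid oxidase that is also higher in females, read 3.67 to 3.93 on chow, 9.07, 5.28 and 8.19 with vehicle, and 3.57 to 3.94 with CMPF; the difference from vehicle was -3.70 (adjusted p = 0.0982). Cd36, the fatty acid translocase, read 5.98 to 6.96 on chow, 8.99 to 10.44 with vehicle and 6.60 to 8.10 with CMPF, a difference from vehicle of -2.44 (95% interval -3.54 to -1.35, adjusted p = 0.17). Pparg, a nuclear receptor that drives fat storage genes, read 4.64 to 5.34 on chow, 6.71 to 6.84 with vehicle and 5.55 to 5.98 with CMPF. It remained 0.78 above chow (adjusted p = 0.0383) and its difference from vehicle was -0.94 (95% interval -1.32 to -0.56, adjusted p = 0.0992); its call against chow was lost without 5 arrays (0.0512 to 0.148). Cyp2c39 was 0.12 from chow and -1.52 from vehicle (adjusted p = 0.0982), and Slc22a29, Sema4a and Echdc3 were -0.03, 0.06 and 0.11 from chow. Echdc3 differed from vehicle by -0.36 (adjusted p = 0.619). These 4 genes and Hao2 were picked as genes raised by HFD whose CMPF mean was nearest chow. Their closeness to chow therefore follows from the choice and is no result.

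**Figure D3:**
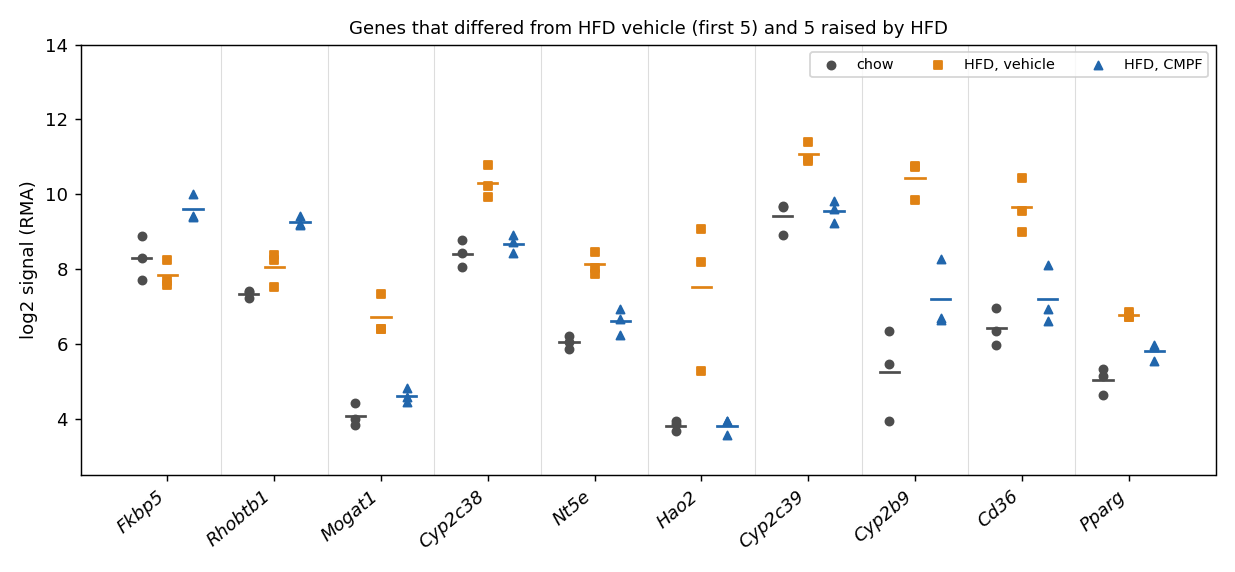
Log2 signal by array of the 5 genes that differed between CMPF and vehicle on HFD (Fkbp5, Rhobtb1, Mogat1, Cyp2c38, Nt5e) and of 5 genes that passed for HFD with vehicle against chow and did not pass in that direct comparison; circles are chow, squares HFD with vehicle, triangles HFD with CMPF, bars are means of 3 arrays. Mogat1, Cyp2c38 and Nt5e fall from vehicle toward chow with CMPF, whereas Fkbp5 and Rhobtb1 are highest with CMPF.

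Of 13 tested female-biased genes, 4 passed for vehicle (2.45% of all genes) and 0 for CMPF (2% of all genes), and 8 of 13 were below vehicle with CMPF, with 0 past the threshold. Of 20 tested male-biased genes, Ugt2b38 alone fell and 0 rose, beside 0.393% and 1.61% of all genes. Its call was lost without 6 arrays, and 12 of the 20 were above chow. Genes lowered by HFD with vehicle and nearest to chow with CMPF were Prss37, Endou, Slc25a53, Arrdc1 and Il1f8; their differences from vehicle were 0.06 to 0.32, and 0 of 5 passed there.

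Some genes passed with CMPF while the vehicle mean stayed near chow. Among those that rose, Capn8, a calpain protease (1.29, vehicle -0.08), Mknk2, a kinase that phosphorylates eIF4E (0.72, vehicle 0.14), Crebrf, a repressor of CREB3 (0.61, vehicle 0.11), Acy1, aminoacylase 1 (0.51, vehicle 0.14), and Ndel1, a dynein partner (0.47, vehicle 0.13), had the smallest vehicle differences. Among those that fell, Lhpp, a phosphatase (-0.85, vehicle -0.09), Mreg, melanoregulin (-0.77, vehicle -0.00), Spon2, a secreted matrix protein (-0.77, vehicle 0.10), and Slc4a4, a bicarbonate cotransporter (-0.70, vehicle -0.17), joined Elovl5. Spon2 read 6.01 to 6.09 on chow, 6.08 to 6.22 with vehicle and 5.31, 5.31 and 5.21 with CMPF, and its difference from vehicle was -0.88 (95% interval -1.20 to -0.55, adjusted p = 0.0858). Mreg had a difference of -0.76 from vehicle (adjusted p = 0.112). The second Spon2 probe set gave -0.10 against chow, and the mean of its probe sets was -0.44 (adjusted p = 0.0571). With means of probe sets Slc4a4 (-0.55, adjusted p = 0.227), Ndel1 (0.35, 0.395), Crebrf (0.36, 0.0685) and Lhpp (-0.85, 0.051) did not pass either. None of these 9 passed in the direct comparison, and each lost its call against chow without 3 to 7 single arrays. Capn8, Crebrf, Mknk2, Acy1 and Ndel1 did not pass after quantile normalisation (adjusted p 0.0648 to 0.27).

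Ptgis, prostacyclin synthase, read 4.70, 4.99 and 4.76 on chow, 4.54 to 4.76 with vehicle, and 5.39, 5.54 and 5.29 with CMPF. It rose by 0.59 against chow (adjusted p = 0.0423) and was 0.77 above vehicle (95% interval 0.48 to 1.06, adjusted p = 0.0903). The call against chow was lost without 6 arrays (0.0565 to 0.116).

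The 20 tested genes that answer unfolded protein in the endoplasmic reticulum were all above chow with CMPF, as deposited and after either scaling, with a median of 0.79; 2 passed (10%, against 2% of all genes). With vehicle the median was 0.48 and 19 of 20 were below the CMPF mean. Herpud1, which helps export misfolded proteins, read 10.74, 9.87 and 11.56 on chow and 11.83, 12.29 and 12.62 with CMPF (1.52, adjusted p = 0.0482), and Canx, the chaperone calnexin, rose by 0.68 (adjusted p = 0.0314). The chaperones Hspa5 (0.64) and Dnajb9 (1.17) did not pass. Without chow arrays 1 or 2, or CMPF arrays 2 or 3, 0 members passed. Canx lost its call without 5 single arrays (adjusted p 0.0595 to 0.105) and Herpud1 without 7 (0.051 to 0.179).

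Pericentral hepatocyte genes had 3 of 18 members higher with CMPF and 5 with vehicle, beside 1.61% and 2.17% of all genes. Gulo, the mouse enzyme of vitamin C synthesis, read 10.38, 10.11 and 10.33 on chow and 11.07, 11.08 and 11.16 with CMPF (0.83 ± 0.10 SE, adjusted p = 0.00101). Lect2, a secreted hepatokine, rose by 1.36 ± 0.21 (SE, adjusted p = 0.0056), and differed from vehicle by -0.51 (95% interval -0.96 to -0.05, adjusted p = 0.936). Both passed with each array left out in turn. Cyp27a1, the sterol hydroxylase of bile acid synthesis, rose by 0.67 (adjusted p = 0.0482), and neither after quantile normalisation nor without 7 of 9 arrays (0.0599 to 0.189). Of 21 tested genes of bile acid synthesis and transport it alone passed as deposited, beside 2% of all genes. Abcb4 of that list passed as lower after quantile normalisation (-0.82, adjusted p = 0.0137) and cyclic loess (-0.79, adjusted p = 0.0239). Of 19 tested NRF2 targets, Gsta3, a glutathione transferase (1.97), and Ugdh, which makes UDP-glucuronate (0.83), rose, beside 1.61% of all genes, and neither did after quantile normalisation or cyclic loess, or without chow array 2. The growth hormone receptor Ghr rose by 0.49 and by 0.51 with vehicle. Its call with CMPF was lost without 5 single arrays (adjusted p 0.0501 to 0.111), after quantile normalisation (0.0595) or cyclic loess (0.151), and with the mean of its probe sets (0.145).

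**Figure D4:**
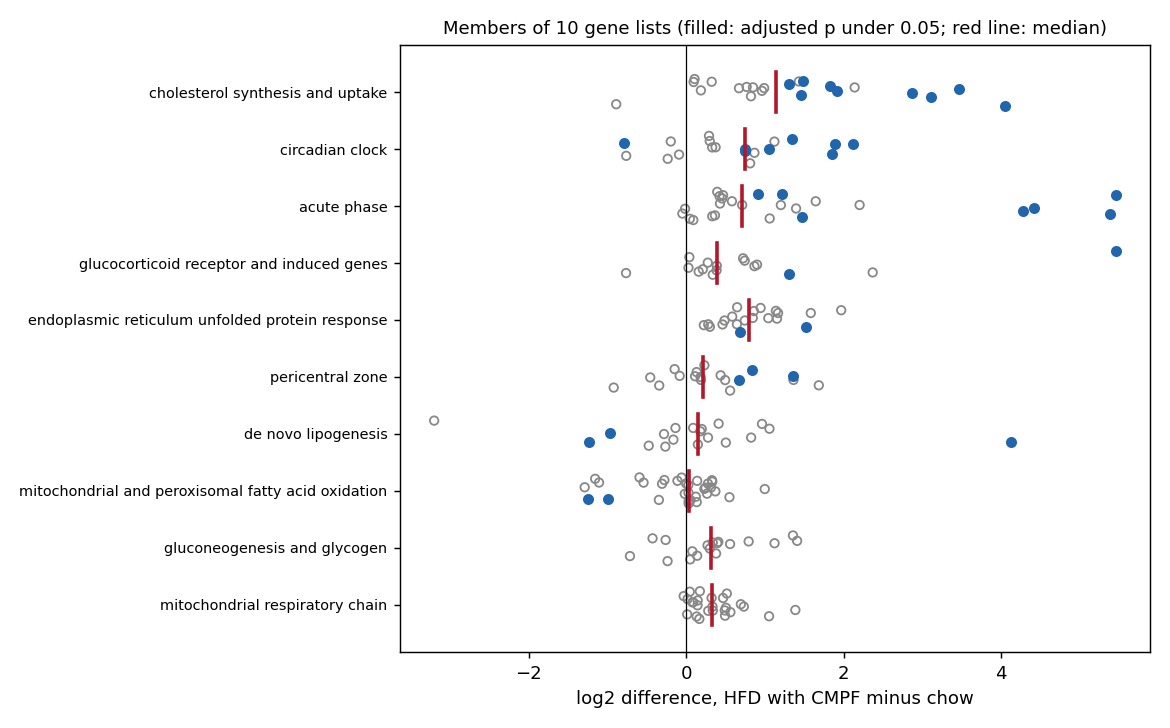
Log2 difference of HFD with CMPF from chow for every tested member of 10 gene lists; each point is a gene, filled where its adjusted p was under 0.05, and the red line is the median of the list. The medians of cholesterol synthesis (1.15), the unfolded protein response (0.79), the clock (0.74) and the acute phase (0.71) lie to the right of 0, and filled points stand on both sides of 0 in the clock and lipogenesis lists.

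For 14 lists, 0 members passed against chow as deposited, beside a background of 2% of genes: Cyp4 omega-hydroxylases (9 tested), gluconeogenesis and glycogen (18), insulin signalling (16), xenobiotic metabolism (18), complement and coagulation (30), the integrated stress response (16), heat shock (12), female-biased genes (13), periportal genes (14), interferon and antigen presentation (22), stellate cells and matrix (18), apolipoproteins (20), the respiratory chain (25) and the cell cycle (11). In the Cyp4 list, Cyp4a31 passed after quantile normalisation (-2.27, adjusted p = 0.04) and cyclic loess (-2.23, adjusted p = 0.0487). Of the gluconeogenic genes, Pck1 (0.27) and G6pc (-0.26) were near chow. The respiratory chain had 24 of 25 members above chow as deposited (median 0.32) and 18 and 14 after quantile normalisation and cyclic loess. Complement genes had 27 of 30 above chow, and 21 after either scaling. Interferon genes had 18 of 22 members below the vehicle mean with CMPF, with 0 past the threshold. Fgf21, a fasting hormone of the liver, read 7.30, 7.29 and 6.06 on chow and 5.74, 5.40 and 6.19 with CMPF (-1.11, adjusted p = 0.198).

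No marker of 13 cell type lists passed against chow, beside 2% of all genes, and a list had only 2 to 12 markers above the signal filter. Summed levels did not overlap between chow and CMPF for 4 of the 13 lists. Among single genes tested, 18.4% did not overlap. Pancreatic acinar markers were 7.74 to 9.67 on chow and 9.70 to 10.7 with CMPF, and markers of erythroid cells and platelets 9.24 to 9.41 and 9.56 to 9.75. Sums of signal cover every marker on the array and weigh the brightest most. The median difference of the markers above the filter went the other way, -0.41 in the acinar list and -0.12 in the erythroid and platelet list. Markers of T and NK cells were 8.16 to 8.23 and 8.06 to 8.08, and the neutrophil levels are given above. For T and NK cells and for neutrophils the median went the same way as the sum (-0.11 and 0.60). Stellate cell markers (12.1 to 12.8 on chow, 12.5 to 12.9 with CMPF), cholangiocyte markers (6.99 to 7.25 and 7.08 to 7.25) and adipocyte markers (7.04 to 7.20 and 6.99 to 7.24, with Adipoq and Lep below the filter) overlapped. The part of other cell types in the results was not tested.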

How the data were processed

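Liver RNA was measured on 18 arrays, 3 in each of 6 groups. The authors' deposited values are log2 signals of 45101 probe sets, made with Affymetrix Expression Console 1.1 and RMA per the submitters' processing notes; cRNA was made from 200 ng of RNA per the labels' protocols. Arrays give no depth, and their number limits the precision. Gene names come from the platform annotation: 34945 probe sets have 1 symbol, 932 several and 9160 none listed. Probe sets in the dimmest 40% by mean were left out, and each gene was read from its brightest probe set on average, which left 13221 genes.

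In the prevention model, CMPF arrays 2 and 3 hardly differed (0 genes over 2-fold apart, against at least 115 in the other 152 pairs) and were averaged, so 17 samples entered a model of 6 group means in limma 3.58.1 (R 4.3.3; 11 residual degrees of freedom), with Benjamini-Hochberg adjustment and a threshold of 0.05. All 6 groups entered the fit so that they share 1 estimate of the spread. Intervals are 95%. On simulated data the fit recovered 73% of genes shifted by 1 log2 unit and 97% of those shifted by 2, and called 6 unchanged genes.

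The comparison, the 31 gene lists, the 13 cell type lists and the motifs were chosen with earlier results of these data known; the lists are described by counts and medians, with no test. Named genes are up to 10 per direction with the largest differences whose groups do not overlap, 5 per direction nearest chow in the vehicle or the CMPF group, the genes that passed against vehicle, 3 members a list by smallest p, and 12 genes of lipid and glucose metabolism given always; other members that passed were named after their values were seen. Promoters are from RefSeq, GRCm38.p6. Scaling, filter, probe set, array, weighting, covariate and block alternatives were run.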

Additional observations from a re-analysis of the deposited data

Results flagged for a closer look

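The difference of HFD with CMPF from chow was tested between the reversal and the prevention model. It differed for 50 of 13221 genes (0.378%, limma; 38 higher and 12 lower in reversal), while 2386 were under an unadjusted p of 0.05. In prevention itself, limma called 0 genes for CMPF on HFD against chow, with 1321 under an unadjusted p of 0.05; its CMPF group counts as 2 samples. Each difference was taken within its own model. Mean log2 signal was 5.08 to 5.10 on the prevention arrays and 5.25 to 5.26 on the reversal arrays.

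Among the genes with a larger difference in reversal, Msmo1 differed between models by 5.52 (4.05 in reversal, -1.47 in prevention) and Fdps by 4.37 (3.11 and -1.26), both enzymes of cholesterol synthesis. Thrsp differed by 3.71, Cyb561, a transmembrane cytochrome, by 2.85 and Akr1c19 by 2.84. Rhobtb1 differed by 1.98, Bhlhe40 by 1.89, Keg1, a glycine acyltransferase-like gene, by 1.87, Ciart by 1.83 and Atp5b, the beta subunit of ATP synthase, by 1.06. Ciart, Bhlhe40 and Rhobtb1 were within 0.07 of chow in prevention.

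Of the 12 genes that differed in the other direction, those named were Tubb2a (-2.27), Tmod3, a tropomodulin (-1.89), Plagl1, a zinc finger factor (-1.47), Slc1a4, a neutral amino acid transporter (-1.43), and Fcsk, fucose kinase (-1.36). Adjusted p for the 15 named genes was 0.0195 to 0.0426. The 3' to 5' index was 1.43 in prevention chow and 2.89 in prevention HFD with CMPF, against 3.15 and 2.63 in reversal. With the index as a covariate 0 genes passed; without single reversal arrays 2 (CMPF array 3) to 198 (CMPF array 2) passed. The part of RNA quality in these differences was not tested further.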

How the results depend on the processing

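Of the 52 named genes that passed against chow, 14 passed with each of the 9 reversal arrays left out in turn and 6 under every other alternative. Under all 21 settings 5 passed (Akr1c19, Ciart, Rhobtb1, Saa1, Usp2). Over all named genes, with differences from vehicle and between models included, 0 changed sign where either fit passed. The 29 changes of sign occurred where neither fit passed, so none was in a call against chow. Of 265 genes changed (213 raised, 52 lowered), the counts became 59 (48 and 11) in a fit of the 9 reversal arrays alone, 8 (8 and 0) with the 6 arrays alone, and 756 (536 and 220) with array weights, fitted gene by gene because the REML weights did not converge. Raised genes were 118 after quantile normalisation; lowered genes were 119 after it, 104 after cyclic loess and 87 with all 18 arrays counted. Leaving out single arrays gave 73 to 267 changed, 60 to 216 raised and 13 to 52 lowered genes.

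The 2 genes that differed from both chow and vehicle became 1 after quantile normalisation or cyclic loess, 0 with the mean of probe sets or the 9 reversal arrays alone, 3 with all 18 arrays, 6 with the 3' to 5' index as a covariate, 12 with array weights, and 0 to 4 with single arrays left out. The 50 genes that differed between models became 281 with all 18 arrays counted, 0 with the index, 1105 with array weights, and 2 to 198 with single arrays left out. The index difference itself was -0.99 to -0.03 with single arrays left out.

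Same-numbered CMPF and chow arrays had correlations of deviations of 0.00, 0.203 and -0.106. For same-numbered CMPF and vehicle arrays they were -0.133, 0.393 and -0.161. With no reference from differently numbered arrays, these values do not decide whether replicate numbers pair the samples. With the replicate number as a block, 180 genes changed (145 raised, 35 lowered), 2 differed from chow and vehicle, neither of them Fkbp5 or Rhobtb1 (adjusted p = 0.0829 each against vehicle), and 14 differed between models. Members that passed, a count chosen after seeing the data, were 10 in the cholesterol list, 6 in the acute phase list, 6 in the clock list and 0 in the unfolded protein response list with the block. Whole-liver RNA, 3 arrays a group and chow array 2 limit what these counts can show.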
